A study of Mus musculus with 16 samples.

Results

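The 8 genes described here encode scavenger receptors of classes A (Msr1, Marco and Colec12), B (Scarb1), D (Cd68), E (Olr1) and H (Stab1), together with the related secreted protein Cd5l. They were chosen by symbol from the 24421 gene symbols of 1 count table, with earlier results of these data known, and all 8 were found. All 8 also passed the low-count filter that left 13649 genes for testing. Expression was measured by RNA sequencing in 16 libraries of macrophages sorted from mouse muscle by the surface protein F4/80, with 4 libraries in each of 4 groups. The groups were Glud1-deficient (KO) mice with CTX-injected muscle, taken when damage peaked, WT mice with CTX-injected muscle, KO mice with normal muscle and WT mice with normal muscle. Glud1 encodes the mitochondrial enzyme glutamate dehydrogenase. The labels write CTX without spelling it out and give neither the age of the mice, the day after injection nor the promoter or allele behind the deletion, so these limits of the KO as a model are not given in the sources used here. No label ties a library to a separate mouse, so p-values measure the spread between libraries, which may be technical.

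Scavenger receptors bind chemically modified lipoproteins, microbial surfaces and debris of dying cells, and carry them into the cell for breakdown in lysosomes. They are defined by what they bind rather than by common ancestry, and the classes differ in structure. Class A members are trimers with a collagen-like stalk, class B members are anchored in the membrane at both ends, Cd68 is a heavily glycosylated protein found mostly in late endosomes and lysosomes, Olr1 is a C-type lectin-like receptor, and Stab1 is a large receptor with repeated fasciclin domains. In damaged muscle, macrophages take up the remains of necrotic fibres, the setting in which such receptors are known to act.

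Total counts ran from 17051892 to 23097420 per library. All 13 general macrophage markers were present in each group, and Adgre1, the F4/80 gene, had group means of 892.7 (KO CTX), 845 (WT CTX), 539 (KO normal) and 603 CPM (WT normal). CPM are the reads of a gene per library total, multiplied to a common size and scaled with TMM factors. TMM scaling takes most genes as unchanged between libraries, or as changed evenly in both directions. With injury edgeR called 10040 of the 13649 genes in KO and 9929 in WT, so this premise may not hold here. The TMM factors were 0.758 to 0.866 in CTX-injected and 1.13 to 1.34 in normal muscle. Using library totals alone shifted the median injury difference of all genes by -0.61 in KO and -0.62 in WT on the log2 scale. In normal muscle, WT libraries 5 and 6 and KO library 5 were female by Xist and Y-linked transcripts, and the other 13 libraries were male. Of the other marker lists not given with a result below, by edgeR in KO and in WT, 6 and 7 of 13 general macrophage markers rose and 5 fell in each, a balance that turned to 3 higher and 6 lower in each with library totals only. In each genotype 8 of 8 mural cell, 7 of 9 muscle fibre, 7 of 8 dendritic cell and 10 of 10 T and NK cell markers fell, while the dendritic cell marker Xcr1 rose by 0.86 in KO and 2.33 in WT (0.23 and 1.72 with library totals only). Of 11 neutrophil markers, 1 fell in KO and 7 in WT, or 6 and 9 with library totals only.

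Start-site windows of 300 bases, from 250 before to 50 after the annotated start, were found in RefSeq (GRCm38.p6) for 5 of the 8 genes, Marco, Cd68, Olr1, Stab1 and Cd5l. Those of Cd68 and Olr1, which rose with injury, and of Marco, which fell, are shown because these 3 genes carry the contrast described below. The windows lie at chr11:69666121-69666420 (Cd68), chr6:129507116-129507415 (Olr1) and chr1:120504975-120505274 (Marco), all on the minus strand and read 5′ to 3′ along the gene. Capitals mark the letters GAGGAA, a core bound by the myeloid factor PU.1, on either strand (read as TTCCTC on the reverse strand), and TGANTCA, the AP-1 motif, which reads alike on both strands.
Cd68: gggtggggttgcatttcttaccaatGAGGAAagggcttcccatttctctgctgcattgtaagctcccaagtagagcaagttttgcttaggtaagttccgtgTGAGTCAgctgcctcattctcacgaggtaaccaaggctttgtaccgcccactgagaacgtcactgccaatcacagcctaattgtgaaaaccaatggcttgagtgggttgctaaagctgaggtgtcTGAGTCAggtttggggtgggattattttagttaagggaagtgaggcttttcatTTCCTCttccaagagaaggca
Olr1: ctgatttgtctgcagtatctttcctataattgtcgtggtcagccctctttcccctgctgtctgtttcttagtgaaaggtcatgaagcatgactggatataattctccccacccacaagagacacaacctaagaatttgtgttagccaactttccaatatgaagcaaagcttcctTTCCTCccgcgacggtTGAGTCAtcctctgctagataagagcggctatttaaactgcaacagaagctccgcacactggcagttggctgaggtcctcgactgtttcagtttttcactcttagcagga
Marco: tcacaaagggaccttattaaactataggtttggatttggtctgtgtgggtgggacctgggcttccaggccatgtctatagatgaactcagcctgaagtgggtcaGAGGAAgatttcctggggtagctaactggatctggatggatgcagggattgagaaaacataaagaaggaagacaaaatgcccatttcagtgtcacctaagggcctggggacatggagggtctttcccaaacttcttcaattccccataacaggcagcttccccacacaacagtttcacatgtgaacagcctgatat
The AP-1 letters stood at 2 places in the Cd68 window, from -149 to -143 and from -24 to -18 relative to the start, and at 1 place in the Olr1 window, from -60 to -54. They were in neither the Marco, Stab1 nor Cd5l window, and 7.81% of all 32851 windows of this length held them. The PU.1 letters were in all 5 windows, against 28.3% of all windows. No window of the 5 held TGACNNNGC, the core of the antioxidant response element bound by Nrf2, searched on both strands, against 12.4% of all windows. None of these matches overlapped another, and a match describes letters, not binding.

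Injury separated the class members into genes that rose, genes that fell and genes with no stable change. In KO, edgeR's quasi-likelihood test called 4 of the 8 genes higher (Msr1, Olr1, Cd68 and Stab1), against 33.3% of all genes tested, and 3 lower (Marco, Colec12 and Scarb1), against 40.2%. In WT it called 3 higher (Msr1, Olr1 and Cd68), against 33.3%, and the same 3 as in KO lower, against 39.4%. These shares are close to those of all genes, so the number of calls does not set scavenger receptors apart. The ranges of CTX-injected and normal libraries did not overlap for 6 of the 8 genes in KO, against 66.8% of all genes, and for 7 in WT, against 65.5%. The 7 in WT include Stab1, whose direction turned with the scaling. The median log2 difference of the 8 genes was 0.32 in KO and 0.14 in WT, beside -0.16 and -0.15 over all genes.

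**Figure D1:**
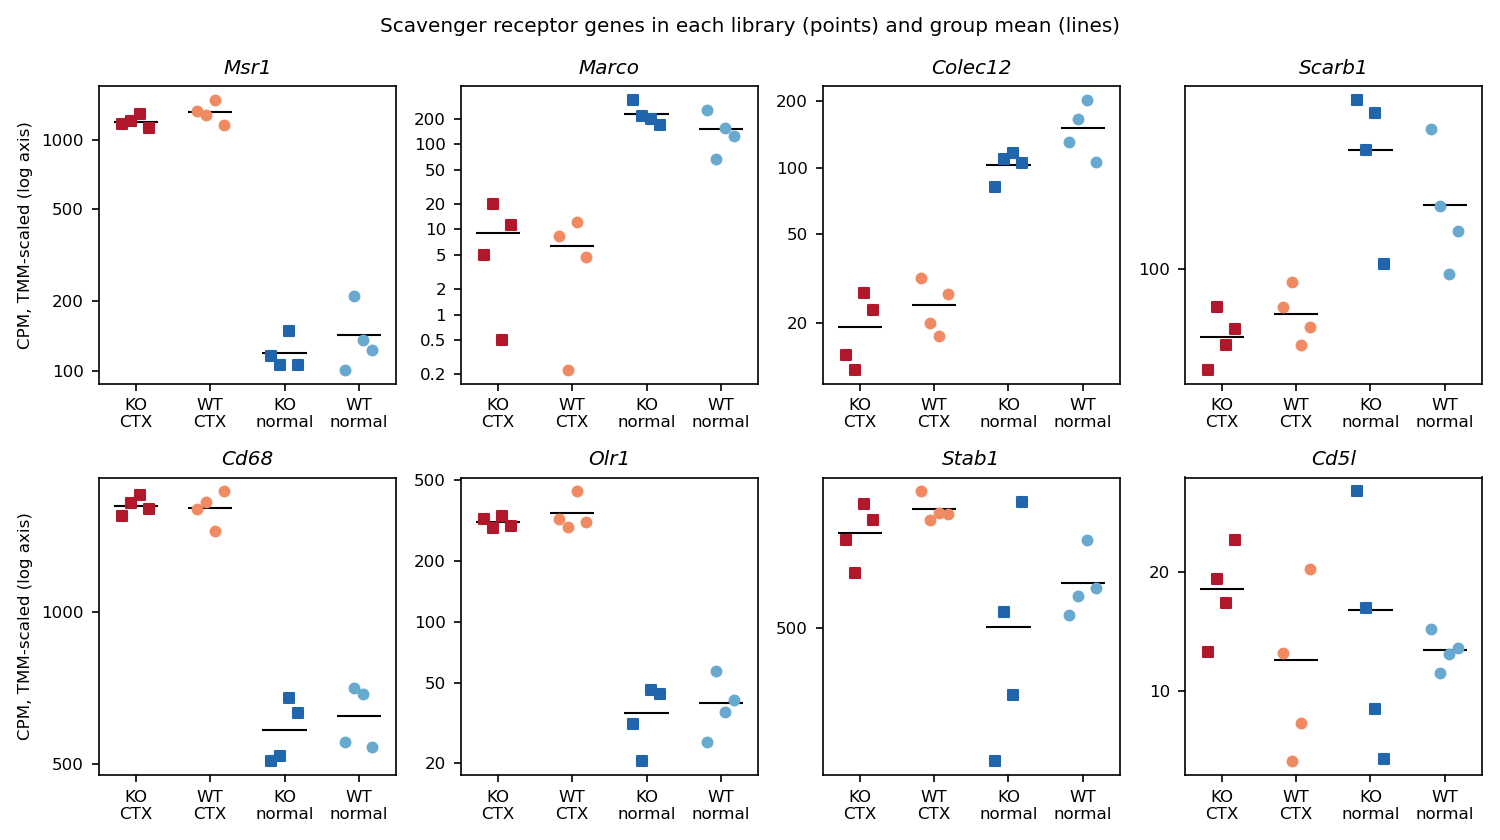
TMM-scaled CPM (log axis) of each of the 8 genes in the 16 libraries, with KO CTX, WT CTX, KO normal and WT normal from left to right, 1 point per library and a line at the group mean. Msr1, Olr1 and Cd68 lie higher and Marco, Colec12 and Scarb1 lower in every CTX library than in every normal library of the same genotype, while the points of Cd5l overlap in all groups.

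Msr1 encodes the class A receptor SR-A, a trimeric receptor for modified lipoproteins and bacterial lipids (chromosome 8, 39581685 to 39642673, minus strand, mm10). KO libraries 1 to 4 of CTX-injected muscle had 1167, 1203, 1294 and 1126 CPM of Msr1, against 116.5, 106, 149 and 106 CPM in KO normal libraries 1, 2, 3 and 5. In WT, the 4 CTX libraries had 1330, 1278, 1495 and 1155 CPM, against 101, 210.8, 136 and 123 CPM in normal libraries 2, 3, 5 and 6. Every CTX library lay far above every normal one, with the highest normal value in WT library 3. The log2 difference was 3.32 (SE 0.20, edgeR adjusted p = 1.8e-09) in KO and 3.20 (SE 0.20, edgeR adjusted p = 2.29e-09) in WT, a 10.02-fold and a 9.20-fold rise. With library totals as the only scaling the differences were 2.72 and 2.60. Of 9 monocyte markers, edgeR called 4 higher in KO and 5 in WT and none lower (3 higher in each, 3 lower in KO and 2 lower in WT with library totals only), and their summed level was 4276 to 4775 CPM in KO CTX and 4005 to 5379 CPM in WT CTX libraries, against 882 to 1935 CPM in KO normal and 867 to 1805 CPM in WT normal libraries. Their part in the rise of Msr1, and of Olr1 and Cd68 below, was not tested. In such sorted bulk samples, more cells of a kind that carries a transcript and more transcript per cell cannot be told apart, here and for each gene below.

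Olr1 encodes LOX-1, the class E receptor for oxidized low-density lipoprotein (chromosome 6, 129485244 to 129507165, minus strand). It had 322, 291, 334 and 296 CPM in the 4 KO CTX libraries, against 31.1, 20.3, 45.8 and 43.8 CPM in KO normal libraries 1, 2, 3 and 5. The WT CTX libraries had 323, 296, 443 and 312 CPM, against 25.4, 57.25, 35.7 and 40.8 CPM in WT normal libraries 2, 3, 5 and 6. The groups did not overlap, and WT CTX library 3 stood above the rest as it did for Msr1. Olr1 rose by 3.14 (SE 0.26, edgeR adjusted p = 4.18e-08) in KO and by 3.11 (SE 0.26, edgeR adjusted p = 4.34e-08) in WT on the log2 scale, and by 2.55 and 2.50 with library totals only.

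Cd68, the class D member and a general macrophage marker (chromosome 11, 69664213 to 69666153, minus strand), rose less from a higher level. Its values were 1550, 1645, 1707 and 1598 CPM in KO CTX libraries, against 505, 517.5, 675.5 and 630 CPM in KO normal libraries 1, 2, 3 and 5. They were 1600.0, 1650, 1451 and 1738 CPM in WT CTX libraries, against 551, 706, 688 and 539 CPM in WT normal libraries 2, 3, 5 and 6. Cd68 had the tightest spread of the 8 genes in KO CTX libraries, with a coefficient of variation of 4.11%, and the second tightest in WT CTX libraries (7.46%, after 4.38% for Stab1). The log2 difference was 1.48 (SE 0.13, edgeR adjusted p = 5.72e-08) in KO and 1.37 (SE 0.13, edgeR adjusted p = 1.2e-07) in WT, and 0.88 and 0.77 with library totals only.

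Marco, the other class A receptor of macrophages, known for binding bacteria and inhaled particles (chromosome 1, 120474538 to 120505024, minus strand), fell the most. KO CTX libraries 1 to 4 held 5.01, 20.0, 0.503 and 11.2 CPM, against 337, 214, 199 and 167 CPM in KO normal libraries 1, 2, 3 and 5. WT CTX libraries 1 to 4 held 8.50, 0.223, 12.1 and 4.73 CPM, against 254, 67.8, 155.5 and 125 CPM in WT normal libraries 2, 3, 5 and 6. The groups did not overlap, but libraries within a group differed widely: KO CTX library 3 had 9 reads and WT CTX library 2 had 4, against up to 353 and 182 reads in the other CTX libraries of each genotype. The log2 difference was -4.64 (SE 0.82, edgeR adjusted p = 9.46e-05) in KO and -4.57 (SE 0.82, edgeR adjusted p = 0.000121) in WT with the widest standard errors of the 8 genes. Leaving out single libraries moved it between -5.35 (without KO CTX library 2) and -4.24 (without KO CTX library 3) in KO, and between -5.07 (without WT CTX library 3) and -4.16 (without WT CTX library 2) in WT. Markers of tissue-resident macrophages fell beside Marco: of 13 tested, edgeR called 10 lower and 1 higher in KO and 11 lower in WT. Their summed level was 3164 to 3557 CPM in KO CTX and 3076 to 3970 CPM in WT CTX libraries, against 4514 to 5455 CPM in KO normal and 5385 to 9696 CPM in WT normal libraries, with no marker at 0 in a whole group. F13a1, called with injury in neither genotype, averaged 2279 CPM in KO CTX and 2411 CPM in WT CTX libraries. It thus made up most of the CTX sums, and averaged 2088 CPM in KO normal and 3146 CPM in WT normal libraries. The median log2 difference of the 13 markers was -3.18 in KO and -3.08 in WT. Their part in the fall of Marco was not tested.

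Colec12 encodes collectin placenta 1, a class A receptor with a C-type lectin domain that endothelial cells and fibroblasts also make (chromosome 18, 9707595 to 9882644, plus strand). It had 14.3, 12.2, 27.2 and 22.8 CPM in KO CTX libraries, against 81.5, 110, 116 and 104 CPM in KO normal libraries 1, 2, 3 and 5. It had 31.8, 19.9, 17.5 and 26.9 CPM in WT CTX libraries, against 130, 166, 203 and 106 CPM in WT normal libraries 2, 3, 5 and 6. All CTX libraries lay below all normal ones. Colec12 fell by 2.43 (SE 0.27, edgeR adjusted p = 7.14e-07) in KO and by 2.65 (SE 0.27, edgeR adjusted p = 2.89e-07) in WT on the log2 scale, or by 3.03 and 3.26 with library totals only. Transcripts of other cell types fell with it. By edgeR, 11 of 12 endothelial markers were lower in KO and 10 of 12 in WT, with a summed level of 61.0 to 84.6 CPM in KO CTX and 76.0 to 91.2 CPM in WT CTX libraries, against 209.9 to 352 CPM in KO normal and 155 to 246 CPM in WT normal libraries. Of 10 fibroblast markers, 9 were lower in KO and 8 in WT, with a summed level of 84.6 to 100.7 CPM in KO CTX and 107 to 124 CPM in WT CTX libraries, against 217 to 943 CPM in KO normal and 255 to 591 CPM in WT normal libraries. No marker of either list was at 0 in a whole group. In KO normal libraries 1, 2, 3 and 5 the summed fibroblast level was 497, 660, 943 and 217 CPM and the endothelial one 352, 312, 284 and 209.9 CPM. Colec12 was at 81.5, 110, 116 and 104 CPM there. In WT normal libraries 2, 3, 5 and 6 the fibroblast level was 497, 591, 281 and 255 CPM and the endothelial one 246, 155, 199 and 203 CPM. Colec12 was at 130, 166, 203 and 106 CPM in these. The part of either cell type in the fall was not tested.

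Scarb1 encodes SR-BI, the class B receptor for high-density lipoprotein that moves cholesterol between lipoproteins and cells (chromosome 5, 125277087 to 125341094, minus strand). Its values were 71.1, 87.9, 77.35 and 81.7 CPM in KO CTX libraries, against 177, 149, 168.5 and 102 CPM in KO normal libraries 1, 2, 3 and 5. In WT they were 87.9, 95.7, 77.5 and 82.2 CPM in CTX libraries, against 160.0, 123.5, 98.1 and 114 CPM in normal libraries 2, 3, 5 and 6. The ranges of CTX and normal libraries did not overlap but came close in WT, where the highest CTX value was 95.7 and the lowest normal value 98.1 CPM. Scarb1 fell by 0.91 (SE 0.16, edgeR adjusted p = 0.000128) in KO and by 0.53 (SE 0.16, edgeR adjusted p = 0.0085) in WT on the log2 scale. The 2 lowest normal values were both from female libraries, and with male libraries only the log2 differences were -1.07 in KO and -0.73 in WT. With library totals only they were -1.52 and -1.15.

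Stab1 encodes stabilin-1, a class H receptor of alternatively activated macrophages and sinusoidal endothelium that clears extracellular matrix fragments and growth factors (chromosome 14, 31139013 to 31168641, minus strand). It had 673, 602, 760.3 and 720 CPM in KO CTX libraries, against 319, 527, 399.5 and 766 CPM in KO normal libraries 1, 2, 3 and 5. It had 794.5, 721, 737 and 734 CPM in WT CTX libraries, against 523.5, 557, 674 and 574 CPM in WT normal libraries 2, 3, 5 and 6. KO normal libraries 1 and 3 were low and library 5 lay above every KO CTX library, while the WT groups did not overlap. In WT, every CTX library was higher than every normal one with TMM scaling, but lower with library totals only. The log2 difference was 0.45 (SE 0.20, edgeR adjusted p = 0.046) in KO and 0.36 (SE 0.20, edgeR adjusted p = 0.108) in WT. The direction rested on the scaling, since library totals alone gave -0.151 in KO (edgeR adjusted p = 0.486) and -0.255 in WT (edgeR adjusted p = 0.24), and the call in KO ended when any of 9 single libraries was left out, with differences of 0.31 (without KO normal library 1) to 0.715 (without KO normal library 5, where it stayed called). Stab1 shares 112 exonic bases with Nt5dc2 on the opposite strand, whose reads this kit does not separate.

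Cd5l encodes a secreted scavenger receptor cysteine-rich protein made by macrophages, also called AIM, and is no cell-surface receptor (chromosome 3, 87357881 to 87371073, plus strand). KO CTX libraries had 12.6, 19.25, 16.7 and 24.1 CPM, against 32.2, 16.3, 9.004 and 6.75 CPM in KO normal libraries 1, 2, 3 and 5. WT CTX libraries had 12.5, 6.64, 8.31 and 20.45 CPM, against 14.4, 11.1, 12.45 and 12.9 CPM in WT normal libraries 2, 3, 5 and 6. The CTX range enclosed the normal one in WT, and the reverse held in KO. The log2 difference was 0.18 (interval of 1.96 SE from -0.61 to 0.97, edgeR adjusted p = 0.699) in KO and -0.08 (-0.88 to 0.72, edgeR adjusted p = 0.861) in WT. Without KO normal library 1 the KO difference was 0.76, still not called.

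**Figure D2:**
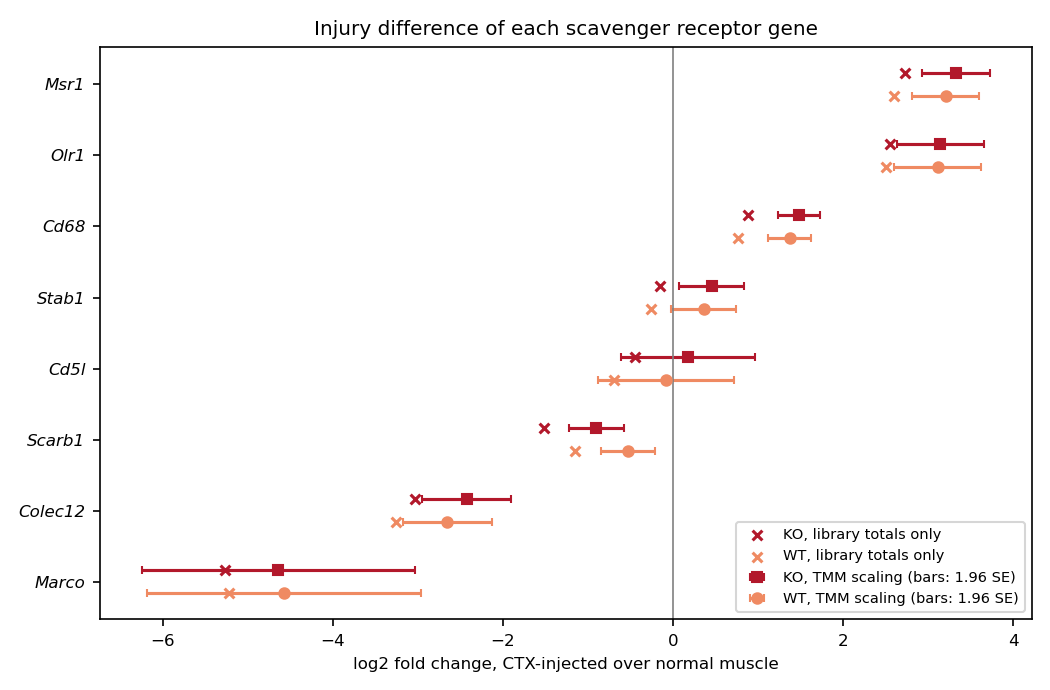
Log2 fold change of CTX-injected over normal muscle for each of the 8 genes, with KO above WT, symbols for TMM scaling with bars of 1.96 SE and crosses for library totals only. Msr1, Olr1 and Cd68 stay above 0 and Scarb1, Colec12 and Marco below 0 under both scalings, while Stab1 lies above 0 with TMM factors and below 0 with library totals.

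Exact two-sided permutation tests of mean log2 CPM gave p = 0.0286, the smallest that 4 against 4 libraries allow, for the 6 genes without overlap in KO and the 7 in WT. The gene added in WT was Stab1, for which library totals only gave the same permutation p in the opposite direction. Over the 32 exact permutation tests of 8 genes in 4 comparisons, the smallest Benjamini-Hochberg adjusted p was 0.0704, so no gene passed the threshold of 0.05. Even with every injury test at 0.0286, the adjusted p would stay above 0.05 unless genotype tests reached 0.0286 too. After adjustment this test could therefore not decide on the injury differences, and no conclusion is drawn from it.

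The injury differences gave the 8 genes another order of abundance. Levels of different genes are compared here as CPM per kilobase of annotated exon, with overlapping exons merged. Cd68 was the highest in each group, at 1293 ± 53.2 in KO CTX, 1281 ± 95.6 in WT CTX, 463 ± 66.75 in KO normal and 494 ± 70.05 in WT normal libraries (SD, n = 4 each). In CTX-injected muscle the order went on with Msr1 (189 ± 11.3 in KO and 207 ± 22.25 in WT), Olr1 (86.95 ± 5.74 and 96.2 ± 18.9) and Stab1 (66.98 ± 6.60 and 72.6 ± 3.18), whose ranges did not touch, followed by Scarb1, Cd5l, Marco and Colec12, whose neighbouring ranges overlapped. In normal muscle Marco came second, at 119 ± 38.7 in KO and 78.3 ± 40.5 in WT, followed by Stab1 (48.9 ± 19.0 and 56.6 ± 6.29) and Msr1 (18.8 ± 3.23 and 22.5 ± 7.50). The ranges of Marco and Stab1 overlapped in WT but not in KO normal libraries. From Msr1 downward the neighbouring ranges in normal muscle overlapped, except those of Olr1 and Cd5l in WT.

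As a share of the summed level per kilobase of the 8 genes, which no scaling of libraries affects, Marco took 0.289% ± 0.262 in KO CTX and 0.200% ± 0.165 in WT CTX libraries, against 17.2% ± 6.08 in KO normal and 11.3% ± 5.98 in WT normal libraries (SD, n = 4 each). Msr1 took 11.4% ± 0.347 in KO CTX and 12.4% ± 1.76 in WT CTX libraries, against 2.70% ± 0.33 in KO normal and 3.20% ± 0.932 in WT normal libraries. Per kilobase, the leading class A transcript was therefore Msr1 in CTX-injected and Marco in normal muscle, with Colec12 below both in group means. The lead of Marco depends on the merged exon lengths, 1925 bases for Marco and 6344 for Msr1. The median ratio of Msr1 to Marco reads was 0.565 in KO normal (0.346 to 0.752) and 0.931 in WT normal libraries (0.397 to 3.11). Olr1 took 5.24% ± 0.339 in KO CTX and 5.76% ± 1.32 in WT CTX libraries, against 1.40% ± 0.388 in KO normal and 1.59% ± 0.515 in WT normal libraries. Stab1 took 4.03% ± 0.36 in KO CTX and 4.33% ± 0.249 in WT CTX libraries, against 7.03% ± 2.70 in KO normal and 8.10% ± 0.871 in WT normal libraries, with no overlap between the states in either genotype. Cd68 took most of each sum and rose with injury, so a gene with no change loses share. The lower share of Stab1 is thus no fall of its own level, whose mean per kilobase was higher in CTX-injected muscle with TMM scaling.

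**Figure D3:**
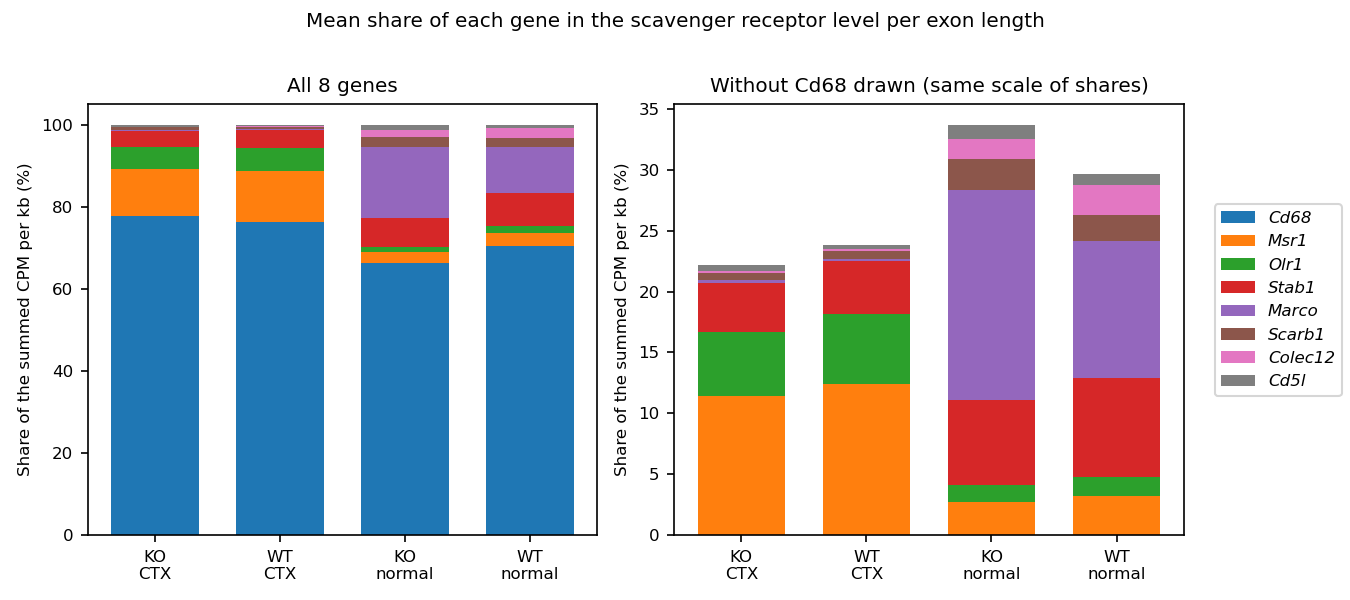
Mean share (%) of each gene in the summed CPM per kilobase of exon of the 8 genes, for KO CTX, WT CTX, KO normal and WT normal libraries (n = 4 each), with all genes on the left and Cd68 left undrawn on the right. After Cd68, Msr1 has the largest share in CTX-injected muscle (11.4% in KO and 12.4% in WT) and Marco in normal muscle (17.2% in KO and 11.3% in WT).

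The KO was compared with WT within each muscle state, to ask whether loss of Glud1 altered these receptors. In CTX-injected muscle none of the 8 genes was called by edgeR (smallest adjusted p = 0.915), none had an unadjusted p under 0.05, and neither DESeq2 nor limma voom called any. Over all genes edgeR called 1, which is 0.00733%, with 910 at an unadjusted p under 0.05, and this was Lyz1, a lysozyme gene named after its value was seen (log2 difference 1.83); its reads and those of its near-identical copy Lyz2 may not be fully separable. The log2 difference of Cd68 was 0.01 (interval of 1.96 SE from -0.23 to 0.26), that of Msr1 -0.13 (-0.49 to 0.22) and that of Scarb1 -0.11 (-0.43 to 0.21). Stab1 stood at -0.12 (-0.50 to 0.27), Olr1 at -0.15 (-0.62 to 0.33) and Colec12 at -0.33 (-0.84 to 0.18). For Marco (0.54, -0.97 to 2.04) and Cd5l (0.60, -0.20 to 1.40) the intervals still hold differences above 2-fold. Groups overlapped for all 8 genes, against 5.70% of all genes whose groups did not overlap.

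In normal muscle no gene of the 13649 was called by edgeR, DESeq2 or limma voom (0%), with 390 genes at an unadjusted p under 0.05 in edgeR. Among the 8, Colec12 had the lowest unadjusted p: its mean was 103 ± 15.1 CPM in KO and 151 ± 42.3 CPM in WT libraries (SD, n = 4 each). The log2 difference was -0.56 with an SE of 0.25, and edgeR's adjusted p was 0.991. Colec12 was lower in KO in each of the 3 pairs of libraries that share a number. Cd68 was also lower in KO in each pair, at 517.5 against 551, 675.5 against 706 and 630 against 688 CPM in KO and WT, with a log2 difference of -0.09 (interval of 1.96 SE from -0.34 to 0.15). The share of all genes with 1 sign in all 3 pairs is not given here, so this agreement does not set Colec12 or Cd68 apart. The other genes differed in sign between pairs, with Stab1 at -0.21 (-0.59 to 0.17), Msr1 at -0.26 (-0.62 to 0.10) and Olr1 at -0.17 (-0.65 to 0.30). Scarb1 was at 0.27 (-0.05 to 0.59), Cd5l at 0.34 (-0.45 to 1.13) and Marco at 0.60 (-0.75 to 1.96). Groups overlapped for all 8 genes, against 1.08% of all genes without overlap. The sign of the genotype difference was the same in both muscle states for 6 of the 8 genes, all but Scarb1 and Cd68, but none of these differences passed the test. The share of all genes with the same sign was not computed, so this count does not set the 8 genes apart. The sign of Cd5l in normal muscle was not stable: it was 0.34 with all libraries and unpaired, -0.07 with the replicate block over all libraries, -0.32 with the block in normal muscle only and -0.23 without KO normal library 1.

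The difference between the genotype effects of the 2 muscle states (interaction) was called for no gene by edgeR (0%), with 646 at an unadjusted p under 0.05, none of them among the 8, while DESeq2 called 48 genes and limma voom 11, also none of the 8. With all libraries and no pairing, the log2 interaction farthest from 0 was that of Scarb1, at -0.38 (interval of 1.96 SE from -0.83 to 0.08, edgeR adjusted p = 1.0). That of Cd5l was 0.26, but 0.82 with the replicate block over all libraries, 0.92 with the block in normal muscle only and 0.86 without KO normal library 1, and it was not called in any of these. For Cd68 (0.11, -0.24 to 0.45) and Msr1 (0.12, -0.38 to 0.63) the intervals exclude an interaction of 2-fold, and for Marco (-0.07, -2.10 to 1.97) they do not.

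Of 18 further scavenger receptor genes, 15 were tested, and with injury they too moved both ways. In KO 5 were called higher and 6 lower by edgeR, and in WT 4 higher and 7 lower, or 2 higher and 10 lower in either with library totals only. The median log2 difference was -0.36 in KO and -0.93 in WT. Named by smallest p in WT, Stab2, the class H relative of Stab1 and a hyaluronan receptor of sinusoidal endothelium, fell to 0.361 ± 0.295 CPM in KO CTX, against 29.9 ± 13.7 CPM in KO normal libraries, and to 0.294 ± 0.271 CPM in WT CTX, against 22.8 ± 8.84 CPM in WT normal libraries. Stab2 thus differed from Stab1, which was at 689 ± 67.9 CPM in KO CTX and 747 ± 32.7 CPM in WT CTX libraries. Cd44, the hyaluronan receptor, rose by 2.27 in KO and 2.19 in WT on the log2 scale, and Lrp1, an endocytic receptor for protease complexes and apolipoproteins, by 1.57 and 1.54 (0.96 and 0.92 with library totals only). Scarb2, a lysosomal relative of Scarb1, rose by 0.77 and 0.74, or by 0.16 and 0.13 with library totals only, while Scarb1 fell. Cd163, the haptoglobin-haemoglobin receptor, fell by 2.02 and 2.01, to 138.5 ± 45.9 CPM in KO CTX, against 563 ± 130 CPM in KO normal libraries, and to 205 ± 52.4 CPM in WT CTX, against 823 ± 211 CPM in WT normal libraries. Its relative Cd163l1 averaged 0.0142 CPM in KO CTX and 0.0716 CPM in WT CTX, against 14.3 CPM in KO normal and 11.7 CPM in WT normal libraries. By edgeR the largest adjusted p among the 6 was 9.99e-06 in KO and 2.62e-05 in WT, both of Cd163l1. None of the 15 was called in either genotype comparison or in the interaction.

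**Figure D4:**
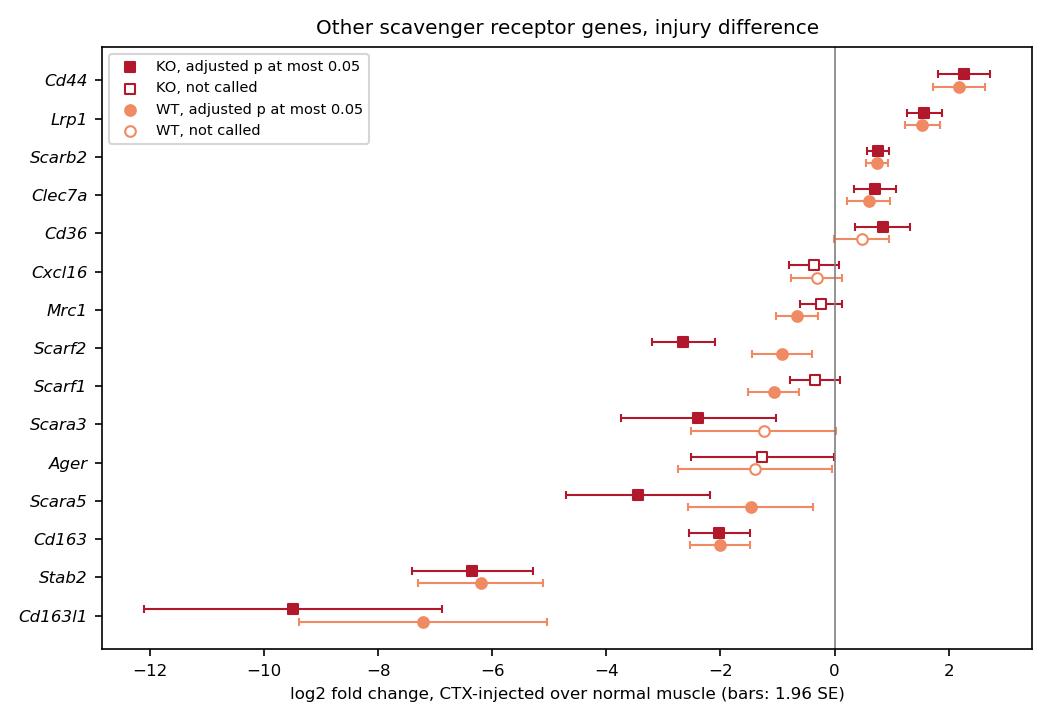
Log2 fold change of CTX-injected over normal muscle, with bars of 1.96 SE, for the 15 tested genes among 18 other scavenger receptors, KO above WT and open symbols where edgeR's adjusted p exceeded 0.05. Cd44 and Lrp1 lie at the top and Stab2 and Cd163l1 at the bottom, where the fitted value of Cd163l1 depends on the prior count because its CTX libraries were at or near 0 reads.

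Genes that act on the lipid cargo of these receptors changed in 13 of 14 cases in each genotype, with 8 higher and 5 lower (8 and 5 in KO but 6 and 6 in WT with library totals only), where of all genes tested 33.3% were higher in each genotype and 40.2% in KO and 39.4% in WT were lower. The same background applies to the lists of other receptors, signalling partners and regulators. Soat1, which esterifies cholesterol, rose by 1.52 in KO and 1.56 in WT on the log2 scale (0.91 and 0.96 with library totals only), and Plin2, which coats lipid droplets, by 2.22 and 1.90. Cyp27a1, a cholesterol hydroxylase, fell by 4.15 in KO and 4.31 in WT, Pltp, a phospholipid transfer protein, by 3.14 and 3.84, and Apoe, the apolipoprotein of cholesterol efflux, by 1.48 and 1.56. By edgeR the largest adjusted p among these 5 genes was 6.86e-07 in KO (Apoe) and 1.5e-06 in WT (Plin2).

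Of 10 signalling partners, 6 rose and 2 fell in each genotype, or 3 and 4 in KO and 2 and 4 in WT with library totals only. Cd14, the lipopolysaccharide co-receptor, rose by 2.40 in KO and 2.36 in WT, and Tlr6, a partner of Tlr2, by 1.58 and 1.71 (0.98 and 1.10 with library totals only). Ly96, the Tlr4 co-receptor MD-2, rose by 0.98 and 0.81 and the kinase gene Lyn by 0.69 and 0.65, of which library totals left 0.36 and 0.20 for Ly96 and 0.09 and 0.04 for Lyn. Tlr3, a receptor for double-stranded RNA, fell by 2.15 in KO and 2.36 in WT, and Mertk, a receptor for apoptotic cells, by 0.71 and 1.24. With library totals only the log2 difference of Mertk was -1.31 in KO and -1.85 in WT. The largest adjusted p by edgeR among the 6 was 0.000446 in KO (Mertk) and 0.000184 in WT (Ly96).

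Transcription factors known to act on scavenger receptor genes changed in both directions: of 16, 7 rose and 6 fell in KO and 6 rose and 5 fell in WT, or 3 and 6 in KO and 3 and 9 in WT with library totals only. Jun and its AP-1 partner Fos fell: the log2 difference of Jun was -2.88 in KO and -2.78 in WT, and that of Fos was -3.24 in KO and -2.84 in WT. Hif1a, the hypoxia factor, rose by 3.08 in KO and 2.93 in WT, Cebpb, a myeloid factor, by 1.41 and 1.28, and Mitf, a factor of lysosomal genes, by 1.13 and 1.06. With library totals only Cebpb was at 0.81 and 0.67 and Mitf at 0.53 and 0.45. Rxra, the nuclear receptor partner, fell by 1.47 and 1.40. Mitf had the largest adjusted p of the 6 by edgeR, 3.43e-06 in KO and 6.79e-06 in WT. None of the lipid, signalling or regulator genes was called in a genotype comparison or in the interaction.

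The genes most like each of the 8 were found among 12919 others by the root mean square distance between log2 CPM profiles over the 16 libraries, each centred on its own mean. Nearest to Msr1 were Hif1a (0.187) and Cstb (0.205), and nearest to Olr1 were Basp1 (0.211) and Msr1 itself (0.234). Cd68 had the closest neighbours, Anxa5 (0.0923) and Il10rb (0.0991). Colec12 was nearest to Gas6 (0.216) and Nid2 (0.254), Scarb1 to Mical1 (0.159) and Rfc5 (0.161), and Stab1 to Adam15 (0.157) and Evi5l (0.171). Cd5l (Ccl8 at 0.422 and Elp6 at 0.428) and Marco (Adam23 at 0.99 and Kcnj16 at 1.09) had no neighbour as close. The profiles share the contrast of 2 muscle states, which most distances reflect.

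**Figure D5:**
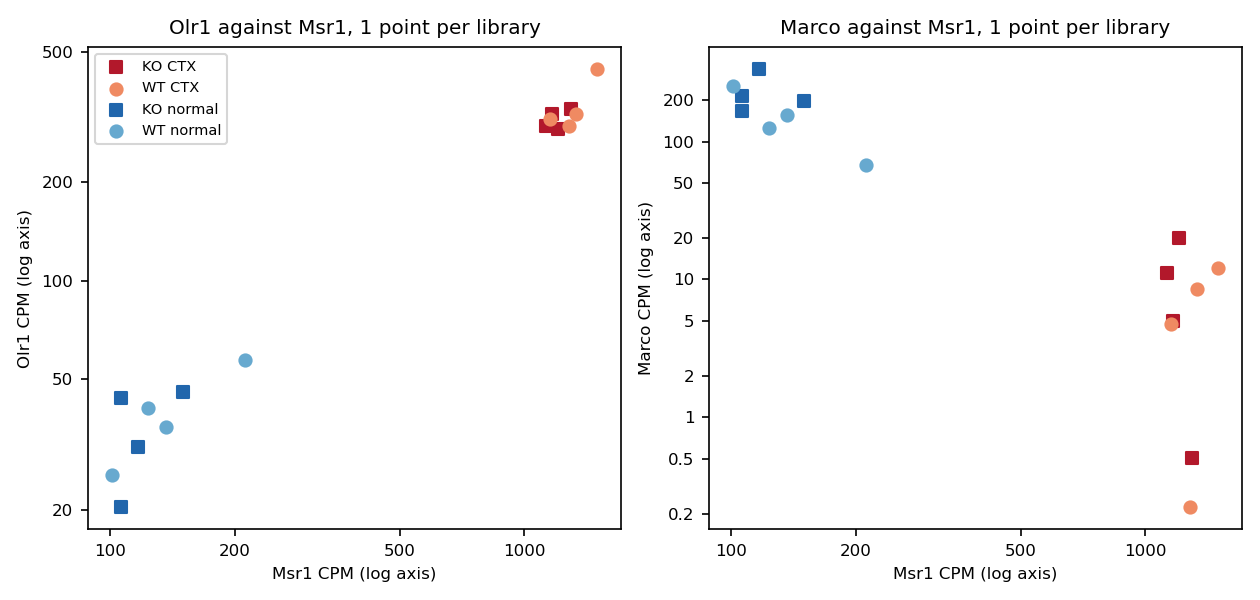
TMM-scaled CPM (log axes) of Olr1 on the left and of Marco on the right against Msr1, 1 point for each of the 16 libraries, coloured by group. CTX libraries lie at 1126 to 1495 CPM of Msr1, where Olr1 is at 291 to 443 CPM and Marco spreads from 0.223 to 20.0 CPM, and normal libraries lie at 101 to 210.8 CPM of Msr1.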

How the data were processed

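The deposited table holds whole-number read counts per gene symbol, made by the authors with featureCounts per the file headers. Per the submitters' processing notes, the tools were FastQC 0.11.7, cutadapt 1.18, HISAT2 2.1.0 and Subread 1.6.2 with build mm10. The annotation and the treatment of multi-mapping reads are not given in the sources used here. Per the labels' protocols, RNA from a Qiagen micro kit was amplified with SMART-Seq V4, which keeps no strand information.

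From these counts, genes were kept with edgeR's filterByExpr (13649 of 24421), scaled with TMM factors and tested with edgeR 4.0.16's quasi-likelihood test over all 16 libraries, with 1 coefficient per group and Benjamini-Hochberg adjustment at 0.05 (R 4.3.3). A total of 5 contrasts was tested. Standard errors are the log2 difference over the square root of F, and the prior count of log2 CPM was 2. Exon lengths and positions came from GENCODE M21 (GRCm38, the assembly of mm10). Single genes were also compared with exact permutation tests (scipy 1.17.1). DESeq2 1.42.0, limma 3.58.1 (voom), other scalings and filters, male libraries, a replicate block and leaving out each library were tried as alternatives. Pairs of libraries within a group differed by more than sampling noise (chi-square per degree of freedom 6.03 to 97.3), and none was counted as a duplicate.

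Library numbers in the titles recur between groups. In normal muscle, KO and WT libraries 2, 3 and 5 deviated together from their group means (r = 0.644, 0.567 and 0.244 across genes). These numbers were taken as pairs there only for the comparison pair by pair and in the alternatives with a block. All other intervals and p-values are unpaired. With the block in normal muscle only, the SE of the KO difference of Msr1 there was 0.12, against 0.18 unpaired. That difference was -0.26 (edgeR adjusted p = 0.714). For Colec12 the SE was 0.27, against 0.25 unpaired. In CTX-injected muscle and between muscle states they did not (r of -0.124 to 0.0682).

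The genes and lists were chosen with earlier results of these data known. Named were all 8 genes in every library, the 6 genes of smallest p in WT injury of each list of further receptors, lipid genes, signalling partners and regulators, and the 2 nearest profiles of each gene, without predicted genes. For 1 of the lipid genes that this rule names, the result is not reported here. Marker lists of 10 cell types were used as context.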

Additional observations from a re-analysis of the deposited data

How the results depend on the processing

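A total of 40 results of single genes, 8 genes in 5 contrasts, was recomputed under 26 settings. Of 1008 values, 991 stayed on their side of the threshold, with the direction of every called one kept, and the other 17 all concerned Stab1. For Stab1, the rise of 0.45 in KO turned to -0.15 with library totals only and lost its call with RLE size factors (0.43), a minimum of 5 CPM in 4 libraries (0.28) and only the 2 groups compared (0.42). In WT it gained a call with male libraries only (0.46), only the 2 groups compared (0.33), the replicate block (0.61) and without KO normal library 5. The cause was not tested. For KO against WT in CTX-injected muscle, edgeR called 1 gene, and the count was 43 with DESeq2, 112 with limma voom, 3 with only the 2 groups compared, 2 with male libraries only, 2 with the replicate block and 1 to 2 without single libraries. The interaction called 0 genes, but 48 with DESeq2, 11 with limma voom, 1 with male libraries only and 0 to 2 without single libraries. None of the 8 genes was among these calls. The replicate block over all libraries, or in normal muscle only (added after the data were seen), changed no other call of the 8 genes. Called genes with injury ran from 9592 to 10171 in KO and from 9526 to 10122 in WT without single libraries, beside 10040 and 9929 with all. Permutation tests without a library were not run, since 3 against 4 cannot give less than 0.0571. For genes of few reads in CTX libraries, such as Marco with as few as 9 in KO and 4 in WT, counts limit the precision. Cd5l had more, with 219 to 464 reads in KO CTX and 119 to 372 in WT CTX libraries. Its coefficients of variation were still 26.5% and 51.5%, and those of Marco were 92.0% and 79.7%. Spread between libraries therefore limits the precision of both genes as well. Reads carry no molecular identifiers, so read numbers cover counting error only.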

Other observations

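The reads of Olr1 and Msr1 kept nearly the same ratio in both muscle states while each changed about as much as the other. The median ratio of Olr1 to Msr1 reads within a library, which no scaling affects, was 0.26 in KO CTX (0.242 to 0.276) and 0.257 in WT CTX libraries (0.232 to 0.296), against 0.287 in KO normal (0.191 to 0.413) and 0.267 in WT normal libraries (0.252 to 0.331). The ratio of Msr1 to Cd68 reads did differ, at 0.742 in KO CTX and 0.803 in WT CTX libraries, against 0.213 in KO normal and 0.213 in WT normal libraries (medians). This pair of ratios was chosen after the values were seen, and the class E and class A genes lie on chromosomes 6 and 8.

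Within each genotype of normal muscle, the order of libraries by Marco was that of Timd4, a phosphatidylserine receptor of resident macrophages, picked from the resident list after the values were seen. KO normal libraries 1, 2, 3 and 5 had 337, 214, 199 and 167 CPM of Marco and 419, 313, 249 and 184 CPM of Timd4. WT normal libraries 2, 5, 6 and 3 had 254, 156, 125 and 67.8 CPM of Marco and 372, 261, 165 and 143 CPM of Timd4. The summed level of all 13 genes of that list did not share this order, at 4514, 5455, 5300.0 and 5007 CPM in KO normal libraries 1, 2, 3 and 5 and at 6178, 9696, 5385 and 7300.0 CPM in WT normal libraries 2, 5, 6 and 3. A large part of that sum was F13a1, with means of 2088 CPM in KO normal and 3146 CPM in WT normal libraries. How many of the other markers, or of all genes, share the order of Marco is not given here, so the match does not set Timd4 apart. In CTX-injected muscle the orders differed: KO libraries 1 to 4 had 5.01, 20.0, 0.503 and 11.2 CPM of Marco beside 1.27, 7.02, 2.07 and 9.40 CPM of Timd4, and WT libraries 1 to 4 had 8.50, 0.223, 12.1 and 4.73 CPM beside 9.18, 0.725, 1.73 and 6.76 CPM.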
